A study of Saccharomyces cerevisiae S288C with 32 samples.

Results

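The genes described here are the 34 genes of mitochondrial protein import in the yeast Saccharomyces cerevisiae strain S288C. They were taken by name: 8 genes of the TOM complex and its receptors, the 5 small TIM chaperones, 3 of the TIM22 carrier translocase, 5 of the TIM23 presequence translocase, 4 of the import motor, the 2 subunits of the processing peptidase, the insertase gene OXA1, the 2 genes of the disulfide relay and 4 of the SAM complex. All 34 were found among 6084 annotated records, and all 34 passed the filter on low counts in every fit. Poly(A)-selected RNA was sequenced in 32 libraries, 4 in each of 8 groups. The zuo1 mutant with L-azetidine-2-carboxylic acid (AZC), zuo1 with sterile water, wild type with AZC and wild type with water shared flowcell 1. The not5 mutant with AZC, not5 with water, and a second set of wild type with AZC and with water shared flowcell 2. All cultures grew in YPD at room temperature, and exposure to 2 mg/mL AZC or to the water vehicle lasted 45 minutes. AZC is a proline analog that ribosomes build into proteins, which then fold poorly. Zuo1 is a J-domain chaperone on ribosomes, and Not5 belongs to Ccr4-Not, the main deadenylase of yeast mRNA. The labels name both mutants without giving the allele, and they number 4 biological replicates per group, with no word on whether these were separate cultures. The p-values therefore measure the spread between these libraries.

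Nearly all mitochondrial proteins are made on cytosolic ribosomes and imported. Precursors enter through the TOM complex of the outer membrane; from there the SAM complex inserts beta-barrel proteins, the small TIM chaperones hand carrier proteins to TIM22, the MIA relay traps cysteine-rich proteins in the intermembrane space, and TIM23 with its ATP-driven motor takes proteins with a presequence into the matrix, where the processing peptidase cuts the presequence off. Most of the core subunits are essential in yeast, and blocked import is known to burden the cytosol with precursors.

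The genes that moved furthest with AZC in wild type on flowcell 1 were MIA40 and SAM50 upward and PAM18 and TIM18 downward, and their upstream sequences are shown because these 4 lead the results below. Each sequence runs 5′ to 3′ on the gene's own strand, from 400 to 101 bases before the start codon, and comes from the RefSeq R64 genome; capitals mark the searched motifs that were found. The MIA40 window is chrXI:75421-75720 on the plus strand, the SAM50 window chrXIV:581520-581819 on the plus strand, the PAM18 window chrXII:166184-166483 on the minus strand and the TIM18 window chrXV:875422-875721 on the minus strand.
MIA40: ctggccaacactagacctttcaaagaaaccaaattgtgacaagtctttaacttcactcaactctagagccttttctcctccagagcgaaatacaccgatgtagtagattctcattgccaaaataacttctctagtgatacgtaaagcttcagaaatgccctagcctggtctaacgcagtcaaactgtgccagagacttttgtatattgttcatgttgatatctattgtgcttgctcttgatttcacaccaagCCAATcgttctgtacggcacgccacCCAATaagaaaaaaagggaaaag
SAM50: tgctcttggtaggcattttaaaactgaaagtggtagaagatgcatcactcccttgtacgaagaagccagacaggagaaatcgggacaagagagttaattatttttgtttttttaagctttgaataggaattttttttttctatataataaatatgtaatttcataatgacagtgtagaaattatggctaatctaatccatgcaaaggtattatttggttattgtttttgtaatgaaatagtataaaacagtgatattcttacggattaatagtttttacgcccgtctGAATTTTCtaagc
PAM18: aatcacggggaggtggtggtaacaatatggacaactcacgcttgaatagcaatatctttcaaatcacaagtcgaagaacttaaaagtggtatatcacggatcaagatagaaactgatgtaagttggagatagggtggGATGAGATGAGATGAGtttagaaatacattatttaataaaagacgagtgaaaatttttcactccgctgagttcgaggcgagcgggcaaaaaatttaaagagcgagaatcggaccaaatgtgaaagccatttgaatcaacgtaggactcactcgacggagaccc
TIM18: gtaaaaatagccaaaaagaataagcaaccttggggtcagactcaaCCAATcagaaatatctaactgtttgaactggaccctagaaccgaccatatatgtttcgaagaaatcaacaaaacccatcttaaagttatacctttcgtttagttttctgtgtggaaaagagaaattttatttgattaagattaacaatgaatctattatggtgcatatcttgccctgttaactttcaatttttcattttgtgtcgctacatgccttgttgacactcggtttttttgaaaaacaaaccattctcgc

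Motifs were searched on both strands of the same window in 34 import genes and in 6001 genes in all. The 3-unit heat shock element, GAANNTTCNNGAA or TTCNNGAANNTTC, was in no import gene's window and in 1.1% of all windows. Its 2-unit forms, which the 3-unit form contains, were commoner. GAANNTTC was in the windows of TIM17, TIM21, PAM16 and SAM50, and in 12.36% of all windows. TTCNNGAA was in those of TIM8, TIM22, TIM54, MGR2 and MDM10, and in 13.83% of all. The stress response element core AGGGG was found for TIM13, TIM50 and SAM35, against 23.53% of all windows. The CCAAT box, in capitals in the MIA40 and TIM18 windows, was found for 12 of 34 import genes and in 43.93% of all windows. GATGAG, repeated with overlap upstream of PAM18, was found for 5 import genes and in 18.41% of all windows. The proteasome element GGTGGCAAA and the drug response element TCCGCGGA were in no import gene's window, and in 1.17% and 0.43% of all windows. These matches describe letters in the windows only.

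Library totals ran between 22152108 and 31485394 counts for flowcell 1, and between 58229383 and 97010130 for flowcell 2. ZUO1 had 3 counts in 1 zuo1 library and 0 in the other 7, against 14757 to 33003 in the wild-type libraries of flowcell 1. NOT5 had 0 counts in all 8 not5 libraries, against 10967 to 17767 in the wild-type libraries of flowcell 2. LEU2, named after its values were seen, had 1378 to 2311 counts in the not5 libraries and 0 in all others, so that the effects of not5 and of LEU2 cannot be told apart. Ribosomal RNA took 13.1% of the not5 AZC library numbered 4 and 14.9% of the not5 vehicle library numbered 4, and at most 4.84% of any other. Levels below are CPM, counts scaled for depth with TMM factors within a flowcell, and are not compared across flowcells. In bulk libraries, fewer cells holding a transcript and less of it per cell cannot be told apart, nor can a gene's level and the length of its poly(A) tail.

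Scaled by coding length, the import transcripts spanned a wide range. In wild-type vehicle libraries of flowcell 2, TOM22, a central receptor, averaged 287 CPM per kilobase. TIM17, a TIM23 subunit, averaged 283, and TOM40, the import channel of the outer membrane, averaged 246. At the low end on the same per-kilobase scale were TOM7 and TIM9 with 18.2 each and MDM10 with 19.3. TOM22 was also the highest of the 34 in zuo1 vehicle libraries, with 305 CPM per kilobase, and TIM17 was the highest in not5 vehicle libraries, with 283. No import gene's annotated span overlapped that of another gene. None shared a stretch of 31 coding bases with another place in the genome, TOM70 and its paralog TOM71 included. The nearest annotated gene, on the opposite strand, was 47 bases from SAM37 and 53 from TOM71. Transcript ends beyond the annotated spans were not checked, and the library kit does not mark strand.

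**Figure D1:**
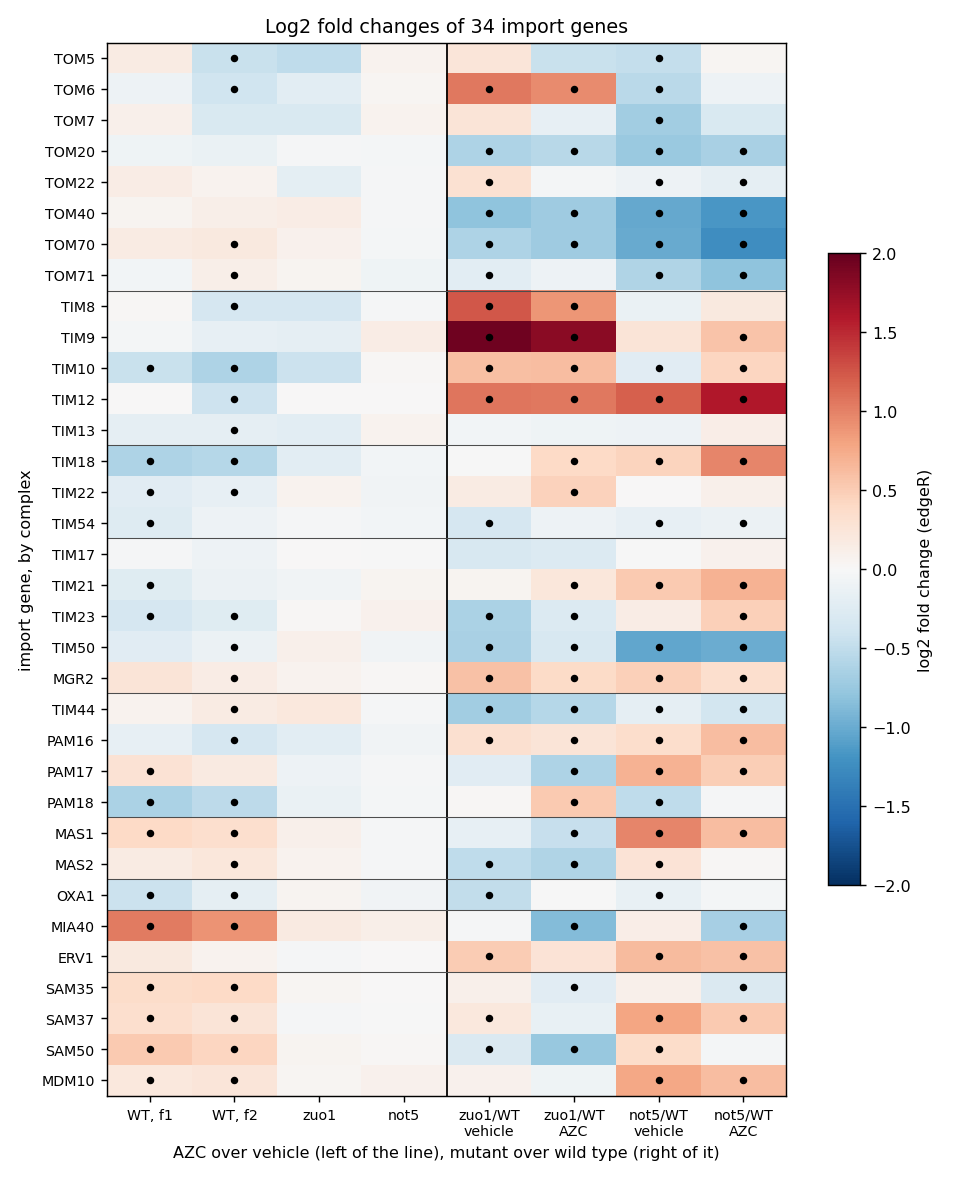
Log2 fold changes of the 34 import genes (rows, grouped by complex) in the AZC and mutant comparisons (columns; f1 and f2 are flowcells 1 and 2), from blue for lower to red for higher, with a dot where the edgeR adjusted p was under 0.05. The columns for AZC in zuo1 and in not5 hold no dots; on flowcell 1 wild type has 15 dots for AZC and on flowcell 2 it has 24.

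AZC in wild type changed import genes in both directions. The intermembrane space oxidoreductase gene MIA40 rose most, all 4 SAM genes rose on both flowcells, and PAM18, TIM18, TIM10, TIM22, TIM23 and OXA1 fell on both. On flowcell 1, 15 of 34 genes passed (edgeR quasi-likelihood test, Benjamini-Hochberg adjusted p under 0.05 over all genes), 7 higher and 8 lower; of all 5782 genes tested, 64.6% passed, 33.3% higher and 31.3% lower. On flowcell 2, 24 of 34 passed, 11 higher and 13 lower, beside 65.3% of 5849 genes, 30.2% higher and 35.2% lower. The median log2 fold change of the 34 was 0.02 on flowcell 1, as for all genes, and -0.11 on flowcell 2, where all genes had -0.03. With ribosomal RNA records removed, the split on flowcell 2 was 14 higher and 9 lower. The share of import genes that passed was 44.1% on flowcell 1 and 70.6% on flowcell 2, the second near the share of all genes; the difference from all genes was not tested.

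MIA40 (YKL195W, chrXI:75821-77032, 1 coding exon), whose product oxidises cysteine-rich proteins as they arrive, had 279.7, 255, 274 and 282 CPM in the wild-type AZC libraries of flowcell 1, against 114, 132, 132 and 153 CPM in the vehicle libraries. On flowcell 2 it had 273, 296, 304 and 302 CPM with AZC, against 144, 164, 158 and 166 CPM with vehicle. Every AZC library lay above every vehicle library on both flowcells. Such complete separation was common in wild type. Over all genes tested, 29.6% lay wholly above and 28.9% wholly below vehicle on flowcell 1, and 28.9% and 32.9% on flowcell 2. The log2 fold change was 1.04 ± 0.08 (SE) on flowcell 1 and 0.90 ± 0.11 on flowcell 2 (edgeR adjusted p = 3.2e-09 and 3.1e-06). ERV1, which reoxidises Mia40, was not called, at 0.20 ± 0.14 and 0.08 ± 0.06.

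SAM50 (YNL026W, chrXIV:581920-583374), the beta-barrel channel of the SAM complex, had 97.2, 99.5, 103 and 109 CPM in wild-type AZC libraries of flowcell 1, against 61.1, 74.2, 71.2 and 77.02 CPM in vehicle libraries. Its AZC libraries on flowcell 2 had 111, 105, 115 and 108 CPM, against 80.4, 82.3, 82.8 and 81.4 CPM with vehicle. The groups did not overlap on either flowcell, and the log2 fold change was 0.53 ± 0.08 on flowcell 1 (edgeR adjusted p = 6.5e-06) and 0.42 ± 0.04 on flowcell 2 (edgeR adjusted p = 2.4e-07). SAM35, a SAM subunit that helps recognise beta-barrel precursors, rose by 0.37 ± 0.09 and 0.39 ± 0.06 on the 2 flowcells (edgeR adjusted p = 0.00215 and 2.4e-05). SAM37, which helps release the finished barrel, rose by 0.33 ± 0.08 and 0.26 ± 0.05 (edgeR adjusted p = 0.001 and 0.000506). MDM10, a barrel shared by SAM and the ERMES tether to the endoplasmic reticulum, rose by 0.22 ± 0.08 and 0.24 ± 0.08 (edgeR adjusted p = 0.0286 and 0.012). Of the processing peptidase, MAS1 rose on both flowcells, by 0.40 ± 0.08 and 0.34 ± 0.04, and MAS2 passed on flowcell 2, at 0.23 ± 0.04, and not on flowcell 1, at 0.17 ± 0.07.

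PAM18 (YLR008C, chrXII:165577-166083), the J-protein that stimulates the motor's Hsp70, had 25.7, 33.3, 24.8 and 31.5 CPM in wild-type AZC libraries of flowcell 1, against 42.9, 44.6, 43.6 and 47.8 CPM in vehicle libraries. On flowcell 2 it had 34.5, 35.2, 31.3 and 38.5 CPM with AZC, against 47.1, 45.4, 55.7 and 52.6 CPM with vehicle. Every AZC library was below every vehicle library, and the log2 fold change was -0.64 ± 0.11 and -0.53 ± 0.08 (edgeR adjusted p = 9.5e-05 and 2e-05). The other motor genes moved otherwise: PAM17, a motor subunit, passed on flowcell 1 at 0.29 ± 0.11, PAM16, the J-like partner of Pam18, passed on flowcell 2 at -0.33 ± 0.06, and TIM44, the scaffold that holds the Hsp70 at the channel, passed on flowcell 2 at 0.16 ± 0.06.

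TIM18 (YOR297C, chrXV:874743-875321), a membrane subunit of the carrier translocase, had 14.6, 15.9, 11.6 and 15.3 CPM in wild-type AZC libraries of flowcell 1, against 20.99, 24.9, 20.5 and 21.6 CPM in vehicle libraries. Its AZC libraries on flowcell 2 had 17.7, 16.6, 15.6 and 16.2 CPM, against 24.9, 23.8, 23.5 and 25.96 CPM with vehicle. The groups were separate on both flowcells, with log2 fold changes of -0.62 ± 0.11 and -0.57 ± 0.06 (edgeR adjusted p = 0.000122 and 6.1e-07). TIM22, the channel of the same translocase, fell too, at -0.23 ± 0.08 and -0.16 ± 0.06, and TIM54, its subunit facing the intermembrane space, passed on flowcell 1 at -0.26 ± 0.07 and not on flowcell 2 at -0.09 ± 0.05.

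**Figure D2:**
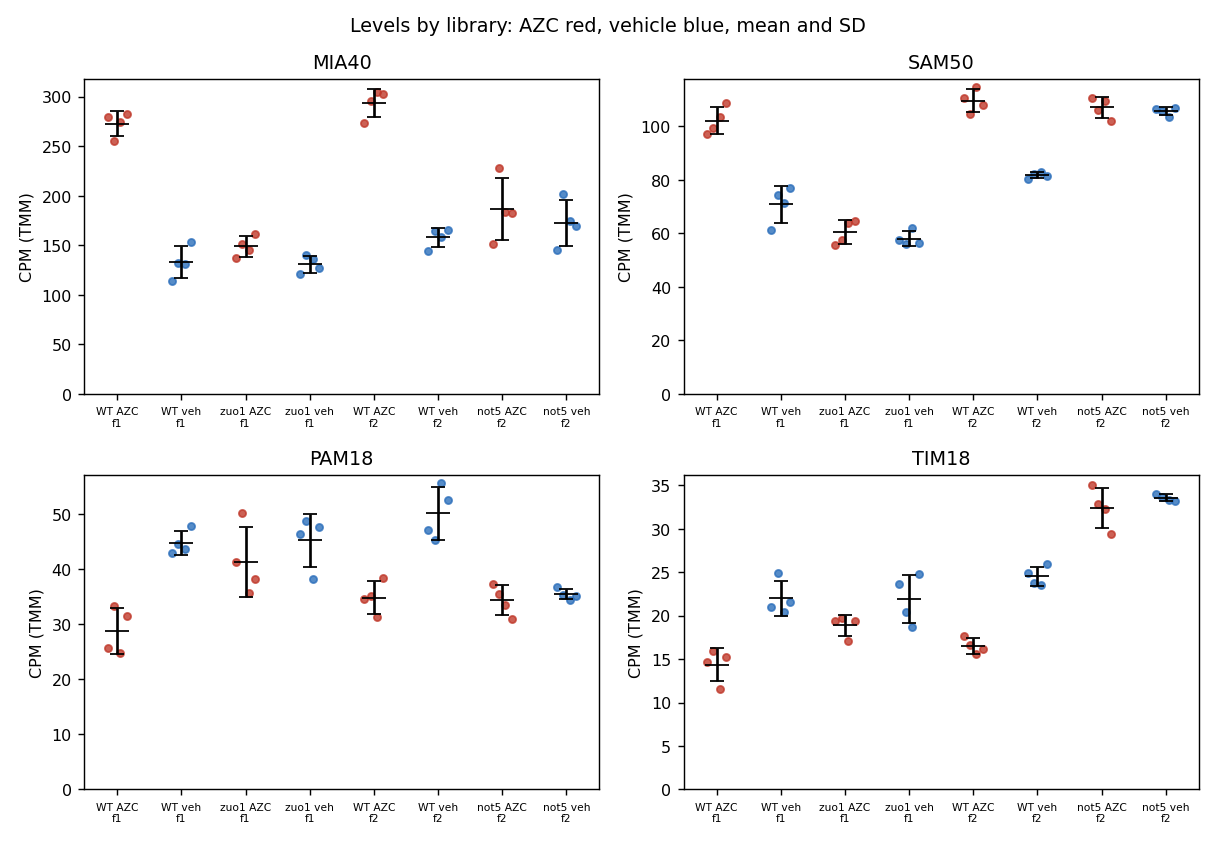
CPM of MIA40, SAM50, PAM18 and TIM18 in each of 4 libraries per group (points; AZC red, vehicle blue), with the mean and SD as black bars, for wild type and zuo1 on flowcell 1 (f1) and wild type and not5 on flowcell 2 (f2). In wild type the AZC and vehicle points do not overlap for any of the 4 genes, and in zuo1 and not5 they do.

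Among the homologous channel proteins TIM17, TIM22 and TIM23, TIM23, the presequence channel, fell with AZC in wild type, at -0.33 ± 0.09 and -0.25 ± 0.09 on the 2 flowcells (edgeR adjusted p = 0.00383 and 0.0257), while TIM17 was not called, at -0.03 ± 0.13 and -0.09 ± 0.06. TIM21, which links TIM23 to TOM, passed on flowcell 1 at -0.24 ± 0.07; TIM50, the presequence receptor, passed on flowcell 2 at -0.12 ± 0.05; and MGR2, a small subunit that helps guard the channel's side exit, passed on flowcell 2 at 0.15 ± 0.06. OXA1, which inserts matrix-side proteins into the inner membrane, fell, at -0.43 ± 0.14 and -0.18 ± 0.05 (edgeR adjusted p = 0.0121 and 0.00313).

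TIM10 (YHR005C-A, chrVIII:115620-115901), the Tim9 partner in the chaperone hexamer for carriers, had 31.4, 38.96, 28.2 and 42.7 CPM in wild-type AZC libraries of flowcell 1, against 50.2, 43.6, 45.6 and 53.8 CPM in vehicle libraries. On flowcell 2 it had 38.8, 37.1, 33.1 and 36.1 CPM with AZC, against 53.3, 57.6, 56.4 and 55.9 CPM with vehicle. The groups were separate on both flowcells, and the log2 fold change was -0.45 ± 0.14 and -0.62 ± 0.06 (edgeR adjusted p = 0.00832 and 3.3e-07). On flowcell 2, TIM12, which docks the chaperones on TIM22, and the partners TIM8 and TIM13 also fell, with log2 fold changes of -0.41 ± 0.13, -0.34 ± 0.10 and -0.18 ± 0.07, and TIM9 was not called, at -0.17 ± 0.12. On flowcell 1, none of these 4 was called.

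The TOM genes were the group with no call on flowcell 1, 0 of 8, with log2 fold changes between -0.11 and 0.17. On flowcell 2, TOM70, the receptor for carriers, and its paralog TOM71 passed at 0.20 ± 0.05 and 0.11 ± 0.04 (edgeR adjusted p = 0.00279 and 0.0195), and the small subunits TOM5 and TOM6 passed at -0.44 ± 0.09 and -0.40 ± 0.11 (edgeR adjusted p = 0.00058 and 0.0038). TOM5, TOM6, TIM8, TIM10, TIM12 and TIM13 have coding lengths of at most 350 nucleotides; over all protein-coding genes of that length the median there was -0.18, with 36.4% called lower and 14.5% higher; its part in the result was not tested. TOM7, another small subunit, TOM20, a presequence receptor, TOM22 and TOM40 were not called on either flowcell.

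In all, 12 genes were called on both flowcells, all 12 with the same sign, which is 80.0% of the calls on flowcell 1 and 50% of those on flowcell 2; over all genes the shares were 85.9% and 84.3%. The difference between the 2 wild-type responses was tested directly, and 0 of 34 import genes passed with edgeR, 3 having an unadjusted p under 0.05, and 0 with DESeq2 or limma-voom, beside 1.31% of all 5808 genes with edgeR, 0.499% higher and 0.809% lower. With the replicate number as a block within each flowcell, 1 passed, OXA1 at -0.30 (edgeR adjusted p = 0.0276). Replicate numbers paired the libraries in wild type, and with the number as a block TOM70 (0.17), MAS2 (0.17) and TIM50 (-0.23) also passed on flowcell 1 and TIM21 (-0.12) on flowcell 2 (edgeR adjusted p = 0.0402, 0.0172, 0.00835 and 0.0242). With the block within genotype, MGR2 (0.27) passed as well on flowcell 1, and TOM40 (0.11), PAM17 (0.18) and TIM54 (-0.09) on flowcell 2, with edgeR adjusted p up to 0.0452. Leaving out single libraries ended calls on flowcell 1 for MDM10 (AZC replicates 3 and 4 and vehicle replicates 1, 3 and 4), PAM17 (AZC replicate 4 and vehicle replicates 1, 2 and 3) and TIM22 (vehicle replicate 4), with edgeR adjusted p up to 0.126, and on flowcell 2 for TIM50 in 6 of 8 such fits, TIM13, TIM22 and MGR2 in 5 each, TIM23 in 4, TIM44 in 3 and TOM71 in 1, with edgeR adjusted p up to 0.143.

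AZC changed no import gene past the threshold in zuo1 or in not5. In zuo1, 0 of 34 passed with edgeR, DESeq2 or limma-voom, 2 had an unadjusted p under 0.05, and 2.77% of all 5782 genes passed, 2.25% higher and 0.519% lower. The largest fold changes in zuo1 were those of TOM5, at -0.51 ± 0.25, and TIM10, at -0.43 ± 0.14 (edgeR adjusted p = 0.425 and 0.132). TIM10 had 48.9, 66.8, 48.8 and 52.01 CPM in zuo1 AZC libraries, against 83.3, 75.3, 58.4 and 74.98 CPM in zuo1 vehicle libraries, and the groups overlapped. It passed when zuo1 AZC replicate 2 or zuo1 vehicle replicate 3 was left out, with edgeR adjusted p = 0.0311 and 0.0388.

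In not5, 0 of 34 passed with edgeR, DESeq2 or limma-voom, and TOM71 alone had an unadjusted p under 0.05, at -0.09 ± 0.04. The largest of the 34 log2 fold changes in not5 was 0.15 in size. Of all 5849 genes, 0.00% passed with edgeR, 62 had an unadjusted p under 0.05, and 1 passed with DESeq2 and 0 with limma-voom. The not5 libraries of equal number varied together, and with that pairing as a block 76 genes passed, of which 0 were import genes.

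The AZC response differed from that of wild type for 10 import genes in zuo1 and 15 in not5, tested as an interaction. For MIA40, zuo1 had 137, 152, 145 and 162 CPM with AZC, against 121, 139.9, 136 and 127 CPM with vehicle, and not5 had 152, 228, 184 and 183 CPM with AZC, against 145, 202, 174 and 169 CPM with vehicle. The AZC and vehicle libraries overlapped in both mutants. The MIA40 response was lower than that of wild type, with a log2 difference of -0.85 ± 0.12 in zuo1 and -0.78 ± 0.15 in not5 (edgeR adjusted p = 7.3e-06 and 0.000608).

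For SAM50, zuo1 had 55.8, 57.7, 63.8 and 64.6 CPM with AZC, against 57.7, 56.04, 62.1 and 56.3 CPM with vehicle, and not5 had 111, 106, 109.6 and 102 CPM with AZC, against 107, 106, 104 and 107 CPM with vehicle. Its response was lower than in wild type, at -0.47 ± 0.11 in zuo1 and -0.40 ± 0.06 in not5 (edgeR adjusted p = 0.00133 and 3.6e-05). The responses of SAM37, SAM35 and MAS1 were also lower than in wild type in both mutants, at -0.36 ± 0.11, -0.33 ± 0.13 and -0.30 ± 0.11 for zuo1 and -0.27 ± 0.08, -0.38 ± 0.08 and -0.36 ± 0.06 for not5. MDM10 was called in neither interaction without a replicate block; in not5 it passed with the block within genotype, at -0.16 (edgeR adjusted p = 0.0435).

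PAM18 had 41.3, 50.3, 35.8 and 38.2 CPM in zuo1 AZC libraries, against 46.4, 48.8, 38.3 and 47.7 CPM in zuo1 vehicle libraries, and 37.4, 35.6, 33.6 and 31.1 CPM in not5 AZC libraries, against 36.7, 35.4, 34.5 and 35.2 CPM in not5 vehicle libraries. Its response was higher than in wild type, that is, it fell in wild type and did not pass in the mutants, with a log2 difference of 0.50 ± 0.16 in zuo1 and 0.48 ± 0.11 in not5 (edgeR adjusted p = 0.0144 and 0.0018). The same held for TIM18, with 0.41 ± 0.16 and 0.52 ± 0.08, and for TIM23, with 0.36 ± 0.13 and 0.33 ± 0.13. In zuo1 the response was also higher for OXA1, at 0.49 ± 0.20, and TIM22, at 0.30 ± 0.11. In not5 it was higher for TIM10, at 0.65 ± 0.09, TOM5, at 0.51 ± 0.13, TOM6, at 0.44 ± 0.15, and PAM16, at 0.26 ± 0.09. It was lower for MAS2, TOM70 and TOM71, at -0.25 ± 0.06, -0.24 ± 0.07 and -0.21 ± 0.06. TIM10, TOM5 and TOM6 have coding lengths of at most 350 nucleotides. Over all 365 protein-coding genes of that length the median difference for not5 was 0.24, with 28.8% called higher and 8.77% lower. TIM10, TOM5 and TOM6 stood above 86.8%, 74% and 67.9% of them. The part of length was not tested.

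For zuo1 the 10 calls were 5 higher and 5 lower, with a median of -0.07 over the 34 genes, beside 50.1% of all genes called, 23.4% higher and 26.7% lower, with a median of -0.05. For not5 the 15 calls were 7 higher and 8 lower, with a median of 0.06, beside 49.2% of all genes, 26.5% higher and 22.7% lower, with a median of 0.04. With library totals as the only scaling the split for zuo1 was 1 higher and 6 lower; with RLE size factors or DESeq2 it was 5 and 3. For not5 it was 4 and 12 with ribosomal RNA removed, 4 and 10 without both not5 libraries numbered 4, and 3 and 7 with all 32 libraries in 1 fit. The shares of all genes above belong to the main fit and were not set beside the counts under other settings. With the replicate number as a block within genotype, 23 genes passed for not5, 11 higher and 12 lower. The 8 added by that block were TIM8, TIM12, TIM13 and TIM21, at 0.32, 0.41, 0.24 and 0.18, and TOM40, TIM44, PAM17 and MDM10, at -0.14, -0.19, -0.21 and -0.16, with edgeR adjusted p up to 0.0455. The zuo1 count fell to 6 without wild-type AZC replicate 2. The zuo1 calls of SAM35, OXA1, MAS1, TIM18, TIM22 and TIM23 ended in 12, 9, 8, 5, 3 and 3 of 16 fits that left out 1 library, and the not5 calls of TIM23 and TOM6 in 12 and 4 of 16, with edgeR adjusted p up to 0.194.

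In zuo1, set against wild type in vehicle, several genes of the import channels, receptors and motor were lower, and several genes of small proteins were higher. TOM40, TIM44, TIM50, TIM23, TOM70 and TOM20 fell by 0.62 to 0.80 on the log2 scale, and TIM9, TIM8, TIM12 and TOM6 rose by more than 1. In all 21 of 34 genes passed, 10 higher and 11 lower, with a median of 0.00, beside 59.3% of 5782 genes, 30.1% higher and 29.1% lower, with a median of 0.01. With library totals as the only scaling the median of all genes was 0.25, and 16 import genes were higher and 7 lower; the changes given here are relative to the typical gene.

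TOM40 (YMR203W, chrXIII:668492-669655), the channel through which nearly all precursors pass, had 132, 156, 166 and 141 CPM in zuo1 vehicle libraries, against 218, 268, 276 and 273 CPM in wild-type vehicle libraries. Every zuo1 library was below every wild-type library, and the log2 fold change was -0.80 ± 0.10 (edgeR adjusted p = 3e-06). Of all 5782 genes tested, 26.4% lay wholly above wild type in this way and 27.2% wholly below. The receptors were lower too: TOM70 averaged 233 ± 18.3 CPM in zuo1 and 358 ± 28.1 CPM in wild type (SD, n = 4 each; -0.62 ± 0.08, edgeR adjusted p = 5.7e-06), and TOM20 averaged 41.4 ± 3.27 CPM and 63.7 ± 9.16 CPM (-0.62 ± 0.13, edgeR adjusted p = 0.000488). TOM71, the paralog of TOM70, was lower at -0.22 ± 0.09 with TMM scaling and at 0.026 with library totals, and its call ended when zuo1 replicate 1, 2 or 4 or wild-type replicate 2, 3 or 4 was left out. TOM22 was higher by 0.30 ± 0.12, and that call ended in 6 of 8 such fits.

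At the inner membrane, TIM44 averaged 110.0 ± 16.3 CPM in zuo1 vehicle libraries and 179 ± 24.3 CPM in wild-type vehicle libraries, with a log2 fold change of -0.70 ± 0.11 (SE; edgeR adjusted p = 5.8e-05). TIM50 averaged 165 ± 20.9 CPM in zuo1 and 258 ± 26.2 CPM in wild type, with -0.65 ± 0.11 (edgeR adjusted p = 7.9e-05). TIM23 averaged 97.6 ± 11.97 CPM in zuo1 and 152 ± 15.8 CPM in wild type, with -0.63 ± 0.09 (edgeR adjusted p = 1.6e-05). These 3 are the receptor, the channel and the motor scaffold of the presequence pathway. MAS2, OXA1, TIM54 and SAM50 also fell, at -0.51 ± 0.07, -0.49 ± 0.14, -0.33 ± 0.07 and -0.29 ± 0.08, whereas MIA40, TIM18 and PAM18 were not called.

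TIM9 (YEL020W-A, chrV:117211-117474) had 12.9, 19.6, 10.7 and 12.7 CPM in zuo1 vehicle libraries, against 4.34, 3.67, 2.48 and 4.09 CPM in wild-type vehicle libraries. The groups were far apart, and the log2 fold change was 1.94 ± 0.23 (edgeR adjusted p = 2.5e-06). TIM8 had 24.9, 26.97, 15.1 and 20.7 CPM in zuo1 vehicle libraries, against 9.05, 10.6, 8.52 and 8.77 CPM in wild type, and TIM12 had 9.06, 11.5, 10.6 and 10.2 CPM, against 6.05, 3.55, 4.22 and 5.94 CPM in wild type. Neither gene's groups overlapped. TIM8, TIM12 and TOM6 rose by 1.25 ± 0.20, 1.07 ± 0.20 and 1.05 ± 0.21 (edgeR adjusted p = 5.8e-05, 0.000178 and 0.000409). TIM10, MGR2, ERV1, PAM16 and SAM37 rose by 0.21 to 0.60, and TIM13 was not called, at -0.05 ± 0.13.

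Coding length moved with this comparison, and its part in the result was not tested. Over all protein-coding genes of at most 350 nucleotides, 331 in number, the median log2 fold change of zuo1 over wild type in vehicle was 0.82, and 62.8% were called higher. It was 0.48 for over 350 to 600 nucleotides, 0.13 for over 600 to 1200 and -0.14 above 1200, where 42.5% were called lower. Of the import genes, 9 have coding lengths of at most 350 nucleotides, and 6 of these were called higher and 0 lower. Among the 331 genes of that length, TIM9 stood above 94.3%, TIM8 above 72.2%, TIM12 above 65.0% and TOM6 above 63.4%, while TIM10, MGR2, TOM7, TOM5 and TIM13 stood above 39.9%, 39.0%, 23.0%, 22.7% and 14.8%. Genes of that length held 4.10% ± 0.51 of all counts in zuo1 vehicle libraries and 2.30% ± 0.18 in wild-type vehicle libraries (SD, n = 4 each).

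**Figure D3:**
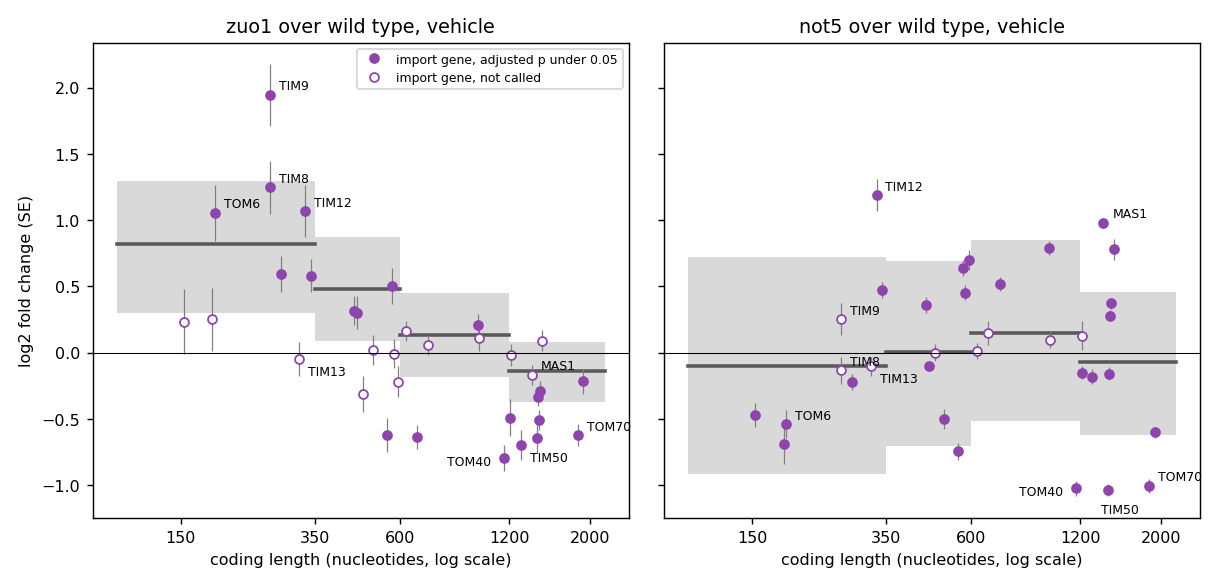
Log2 fold change (with SE) of the 34 import genes against coding length in nucleotides (log scale), for zuo1 over wild type (left) and not5 over wild type (right) in vehicle; filled points passed an edgeR adjusted p under 0.05. The dark line and grey band are the median and quartiles of all protein-coding genes of that length, which on the left step down from 0.82 to -0.14 and on the right lie between -0.10 and 0.15.

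Replicate numbers paired the libraries in this comparison, and with the number as a block TIM17 (-0.31), PAM17 (-0.22) and MAS1 (-0.17) also passed (edgeR adjusted p = 0.00329, 0.0205 and 0.0227). Without single libraries the calls of SAM37 (zuo1 replicates 1, 2 and 3 and wild-type replicates 3 and 4) and PAM16 (zuo1 replicate 1 and wild-type replicates 2 and 3) ended, with edgeR adjusted p up to 0.107.

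Under AZC, 23 of 34 genes differed between zuo1 and wild type, 11 higher and 12 lower, with a median of -0.10, beside 69.3% of all genes, 34% higher and 35.4% lower, with a median of -0.01. MIA40 had the lowest fold change, with the zuo1 AZC libraries at 137 to 162 CPM and the wild-type AZC libraries at 255 to 282 CPM and a log2 fold change of -0.87 ± 0.08 (SE; edgeR adjusted p = 3.2e-08). SAM50, TOM70, TOM40 and PAM17 followed, at -0.76 ± 0.08, -0.71 ± 0.08, -0.71 ± 0.10 and -0.61 ± 0.11. TIM9 and TIM12 were the highest, at 1.81 ± 0.23 and 1.06 ± 0.20, followed by TOM6, TIM8 and TIM10 at 0.95 ± 0.21, 0.89 ± 0.20 and 0.62 ± 0.14. Over genes of at most 350 nucleotides the median here was 0.61, and 54.4% were called higher. TIM22, PAM18 and TIM18, which were not called between zuo1 and wild type in vehicle, were higher in zuo1 under AZC, at 0.47 ± 0.08, 0.52 ± 0.11 and 0.40 ± 0.11. Calls of SAM35, PAM16, TIM23 and TIM50 ended in 6, 4, 2 and 2 of 8 fits that left out 1 library, with edgeR adjusted p up to 0.144.

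In not5, set against wild type in vehicle, all 8 TOM genes were lower with TMM scaling, 2 of which, TOM5 and TOM22, were higher with library totals, at 0.053 and 0.42. TIM12, MAS1, SAM37, MDM10 and PAM17 rose by 0.70 to 1.19. In all, 26 of 34 genes passed, 12 higher and 14 lower, with a median of 0.00, beside 82.1% of 5849 genes, 41.2% higher and 40.9% lower, with a median of 0.00. Scaling weighs on this comparison: with library totals the median of all genes was 0.53, and 25 import genes were higher and 4 lower, so the directions given are relative to the typical gene. Without both not5 libraries numbered 4, 23 passed, 13 higher and 10 lower, and TOM22, TIM54, TIM44 and OXA1 were no longer called.

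TOM40 had 151, 135, 146 and 130.0 CPM in not5 vehicle libraries, against 285, 271, 302 and 287 CPM in wild-type vehicle libraries. TOM70 (YNL121C, chrXIV:398684-400537) had 189.6, 182, 201 and 185 CPM in not5 vehicle libraries, against 399, 383, 365 and 375 CPM in wild type. TIM50 (YPL063W, chrXVI:429939-431369) had 129, 128, 139.5 and 130.3 CPM in not5 vehicle libraries, against 267, 273, 278 and 264 CPM in wild type. For each of these 3 genes every not5 library was below every wild-type library. Of all 5849 genes tested, 38.7% lay wholly above wild type in this way and 37.9% wholly below. The log2 fold changes of the 3 genes were -1.02 ± 0.06, -1.01 ± 0.05 and -1.04 ± 0.05 (edgeR adjusted p = 9.2e-11, 4.1e-11 and 1.6e-11). TOM20 fell by 0.75 ± 0.06, TOM7 by 0.69 ± 0.15, the paralog TOM71 by 0.60 ± 0.04 and TOM6 by 0.54 ± 0.11 (SE). TOM5 and TOM22 were at -0.47 ± 0.09 and -0.10 ± 0.04 with TMM scaling, and the call of TOM22 ended without not5 replicate 1, 2 or 3 or wild-type replicate 3, with edgeR adjusted p up to 0.0983. The genes TIM44, TIM54, OXA1, PAM18 and TIM10 were called lower with TMM scaling, at -0.18 ± 0.06, -0.16 ± 0.05, -0.15 ± 0.05, -0.50 ± 0.08 and -0.22 ± 0.06, and were at 0.35, 0.37, 0.38, 0.029 and 0.30 with library totals.

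TIM12 (YBR091C, chrII:427155-427484) had 17.2, 14.1, 13.99 and 15.05 CPM in not5 vehicle libraries, against 5.05, 6.32, 7.56 and 7.57 CPM in wild-type vehicle libraries. MAS1 (YLR163C, chrXII:491866-493254), the catalytic beta subunit of the processing peptidase, had 159, 167, 162 and 162 CPM in not5 vehicle libraries, against 80.02, 79.9, 85.03 and 84.9 CPM in wild type. Both genes' groups were separate, with log2 fold changes of 1.19 ± 0.12 and 0.98 ± 0.04 (edgeR adjusted p = 2e-07 and 5e-12). SAM37 averaged 92.8 ± 2.32 CPM in not5 and 53.7 ± 1.65 CPM in wild type (SD, n = 4 each), MDM10 49.1 ± 4.61 CPM in not5 and 28.7 ± 0.579 CPM in wild type, and PAM17 85.6 ± 6.99 CPM in not5 and 52.7 ± 4.26 CPM in wild type. Their log2 fold changes were 0.79 ± 0.05, 0.78 ± 0.08 and 0.70 ± 0.08 (edgeR adjusted p = 1.2e-09, 1.1e-07 and 3.3e-07). ERV1, TIM21, MGR2, TIM18, SAM50, PAM16 and MAS2 also rose, by 0.28 to 0.64. The family TIM17, TIM22 and TIM23 was not called in not5 vehicle, with TIM23 at 0.15 ± 0.09.

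**Figure D4:**
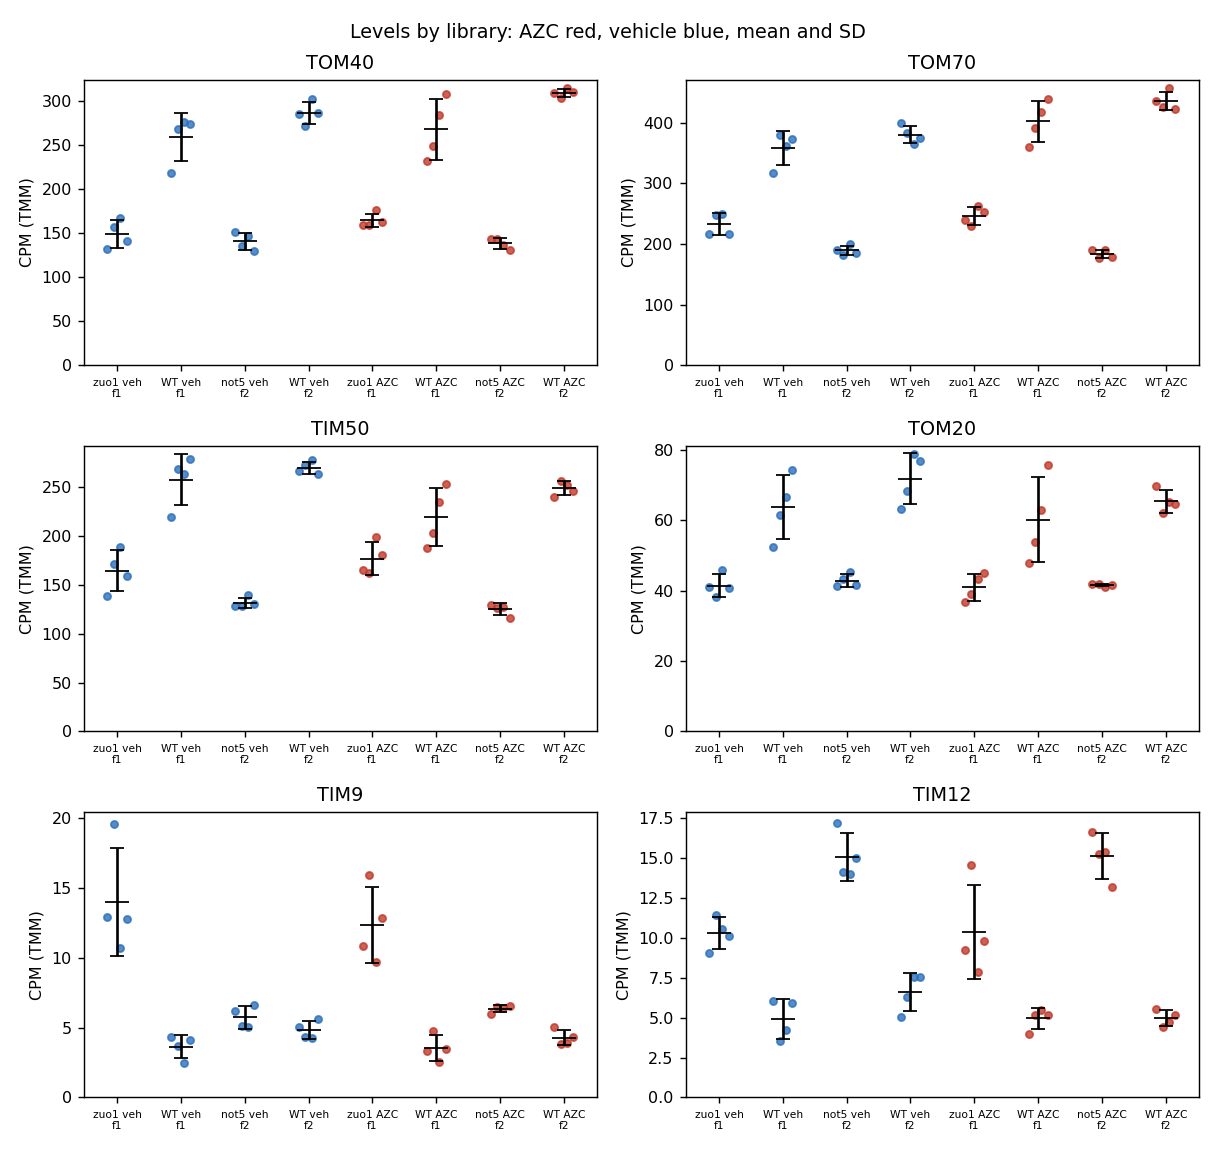
CPM by library (points) with mean and SD (black bars) of 4 libraries per group for TOM40, TOM70, TIM50, TOM20, TIM9 and TIM12, each mutant left of the wild type of its flowcell (f1, f2), vehicle in blue and AZC in red. In vehicle, TOM40 averages 149 CPM in zuo1 and 259 CPM in its wild type, and 141 CPM in not5 and 286 CPM in its wild type.

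Both mutants in vehicle can be set side by side, since they share no library. Of the 18 import genes called in both, 13 had the same sign: TOM20, TOM40, TOM70, TOM71, TIM44, TIM50, TIM54 and OXA1 were lower in both, with TOM71 at 0.026 in zuo1 and TIM44, TIM54 and OXA1 at 0.35, 0.37 and 0.38 in not5 with library totals, and TIM12, ERV1, PAM16, SAM37 and MGR2 were higher in both. The other 5, MAS2, TIM10, SAM50, TOM22 and TOM6, had opposite signs. With library totals TIM10 and TOM22 did not, as both were then higher in not5. The 13 are 61.9% of the import genes called in zuo1 and 50% of those called in not5, beside 59.5% and 42.7% over all genes.

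Under AZC, 23 of 34 genes differed between not5 and wild type, 13 higher and 10 lower, with a median of 0.06, beside 79.3% of all genes, 40.7% higher and 38.7% lower, with a median of 0.02. With library totals the median of all genes was 0.55, and 26 import genes were higher and 4 lower. TOM70, TOM40, TIM50, TOM71 and MIA40 were lowest, at -1.25 ± 0.05, -1.16 ± 0.06, -0.99 ± 0.05, -0.81 ± 0.04 and -0.66 ± 0.11. TIM12, TIM18 and TIM21 were highest, at 1.60 ± 0.13, 0.97 ± 0.06 and 0.69 ± 0.05, followed by MAS1, MDM10 and PAM16, each at 0.62. SAM35, TIM44, TOM22 and TIM54 were lower at -0.29 ± 0.06, -0.37 ± 0.06, -0.18 ± 0.04 and -0.12 ± 0.05 with TMM scaling, and higher at 0.24, 0.16, 0.35 and 0.41 with library totals. The call of TIM54 ended without not5 AZC replicate 4 or wild-type AZC replicate 2 or 4, with edgeR adjusted p up to 0.187.

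The partners and substrates of the import machinery were read from further lists, with TMM scaling only. With AZC in wild type on flowcell 1, 7 of 10 matrix chaperones rose and 0 fell, led by the disaggregase HSP78 at 6.57 ± 0.19 and the J-protein MDJ1 at 3.51 ± 0.10. Of 13 other processing peptidases and quality control proteases 10 rose and 0 fell, led by the matrix protease PIM1 at 1.36 ± 0.08 and the protease adaptor MGR1 at 1.12 ± 0.11. Of 12 MIA relay substrates and copper proteins, together called relay substrates below, 5 rose, led by COX23 at 1.68 ± 0.19 and MIX17 at 1.12 ± 0.11. In this list 1 fell, SOD1, cytosolic superoxide dismutase, at -0.41 ± 0.17. Of 18 carriers brought in by TIM22, 4 rose, led by the copper and phosphate carrier PIC2 at 2.18 ± 0.12, and 5 fell, led by the citrate carrier YHM2 at -1.22 ± 0.13. Of 7 genes of the response to blocked import 5 rose, led by the extraction ATPases MSP1 at 1.04 ± 0.12 and CDC48 at 0.73 ± 0.10, and 1 fell. On flowcell 2 the counts were 7 and 0 of 10 matrix chaperones, 10 and 0 of 13 proteases, 6 and 1 of 12 relay substrates, 3 and 8 of 18 carriers and 5 and 1 of 7 blocked-import genes. Of all genes tested, 33.3% rose and 31.3% fell on flowcell 1, and 30.2% rose and 35.2% fell on flowcell 2.

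Of these lists, AZC in zuo1 changed 5 of 10 matrix chaperones, all higher, with HSP78 at 3.34 ± 0.16 and MDJ1 at 2.28 ± 0.09, and 1 of 13 proteases, PIM1 at 0.33 ± 0.07, and 0 genes of the carrier, relay-substrate and blocked-import lists. AZC in not5 changed 0 genes of any of them. Of all genes tested, 2.25% were higher and 0.519% lower with AZC in zuo1, and 0% passed with AZC in not5. CIS1, which links a blocked TOM channel to Msp1, rose by 3.28 ± 0.30 in zuo1 and by 3.18 ± 0.30 in not5, each against wild type in vehicle. The rest of the blocked-import list did not all move with it. In zuo1, 2 of its 7 genes were higher and 2 lower, CDC48 at -0.54 ± 0.10 and VMS1 at -0.37 ± 0.08. In not5, 6 were higher and 1 lower. The median of this list was 0.11 in zuo1 and 0.83 in not5. In the same comparisons 9 of 12 relay substrates were higher and 0 lower in zuo1, and 8 were higher and 2 lower in not5, led by MIX14 at 2.14 ± 0.23 in zuo1 and CMC2 at 1.88 ± 0.07 in not5. The list's median was 0.93 in zuo1 and 0.57 in not5, against 0.01 and 0.00 over all genes, of which 30.1% were higher and 29.1% lower in zuo1 and 41.2% higher and 40.9% lower in not5. Most relay substrates are short proteins, and in zuo1 the median was 0.82 over all genes of at most 350 nucleotides and 0.48 over those of over 350 to 600, with 62.8% and 57.4% called higher; the part of length in this list's count was not tested. Of 18 carriers 6 were higher and 9 lower in zuo1, and 8 were higher and 10 lower in not5, where AAC3, an ADP/ATP carrier, fell by 4.63 ± 0.18.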

How the data were processed

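Poly(A)-selected RNA from 32 libraries was sequenced, 4 in each of 8 groups. The authors deposited a table of estimated counts per gene with 6085 records, 1 of which matched no annotated gene and stayed out (at most 0.0179% of a library). Per the submitters' processing notes, FastQC 0.12.1, Salmon 1.10.2 and build R64 were used; other settings are not given in the sources used here. Per the labels' protocols, the library kit does not mark strand. Of the deposited estimated counts 79.1% were not whole and were rounded. The members and lists were chosen with earlier results of these data known. Genes that failed filterByExpr by group were left out; edgeR 4.0.16 (R 4.3.3; TMM scaling, robust quasi-likelihood F test) was fitted on the 16 libraries of a flowcell, or on the 16 wild-type libraries for the difference between flowcells, with Benjamini-Hochberg adjustment over all genes and a threshold of 0.05. The SE is the log2 fold change divided by the square root of F.

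Alternatives were RLE size factors, library totals, DESeq2 1.42.0, limma-voom (limma 3.58.1), no low-count filter, ribosomal RNA removed, the replicate number as a block (also within genotype), all 32 libraries in 1 fit, each library left out in turn and, chosen after seeing the data, both not5 libraries numbered 4 left out. Replicate numbers come from the labels. Deviations of same-numbered libraries from their group means correlated above 0.1 in every pair, across genes, in some comparisons. These were AZC in wild type (0.206 to 0.44 on flowcell 1, 0.211 to 0.54 on flowcell 2), AZC in not5 (0.437 to 0.902) and zuo1 against wild type in vehicle (0.212 to 0.35). Replicate numbers were read as pairing the libraries there. The main tests still held no replicate block in any comparison, and the block was used only as an alternative. No 2 libraries of the same group agreed within counting noise, and pairs across groups were not compared in this way. All 34 import genes are accounted for; per comparison, full values were given to up to 5 called genes in each direction, with TOM70 and TOM71, the TIM17, TIM22 and TIM23 family and the small TIM genes described whatever their values. The code was tested on simulated data.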

Additional observations from a re-analysis of the deposited data

Results flagged for a closer look

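In 12 of 272 combinations of an import gene and a group, 1 of 4 libraries stood far from the other 3 (Dixon's gap test), where chance flags about 1 in 20 groups. The lowest library stood apart for TOM5 in wild-type AZC on flowcell 1 (replicate 3, 3.33 CPM), TOM40 in wild-type vehicle on flowcell 1 (replicate 1, 218 CPM), TIM18 in zuo1 AZC (replicate 3, 17.1 CPM), TIM54 in not5 AZC (replicate 4, 110.0 CPM), MAS1 in wild-type AZC on flowcell 2 (replicate 2, 99.7 CPM) and SAM35 in wild-type AZC on flowcell 1 (replicate 1, 141 CPM). The highest stood apart for TOM5 in zuo1 vehicle (replicate 4, 5.81 CPM), TOM71 in wild-type AZC on flowcell 2 (replicate 1, 165 CPM), TIM21 in wild-type AZC on flowcell 1 (replicate 2, 60.8 CPM) and MGR2 in zuo1 AZC (replicate 2, 42.2 CPM), not5 AZC (replicate 4, 36.8 CPM) and not5 vehicle (replicate 4, 37.0 CPM). The 2 not5 libraries numbered 4 are those with the most ribosomal RNA; its part in the MGR2 and TIM54 values was not tested.

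The AZC response differed from that of wild type by the interaction test in edgeR for 25 combinations of gene and mutant. In zuo1 the log2 differences were 0.41 for TIM18, 0.30 for TIM22, 0.36 for TIM23, 0.50 for PAM18, -0.30 for MAS1, 0.49 for OXA1, -0.85 for MIA40, -0.33 for SAM35, -0.36 for SAM37 and -0.47 for SAM50. In not5 they were 0.51 for TOM5, 0.44 for TOM6, -0.24 for TOM70, -0.21 for TOM71, 0.65 for TIM10, 0.52 for TIM18, 0.33 for TIM23, 0.26 for PAM16 and 0.48 for PAM18. For the others in not5 they were -0.36 for MAS1, -0.25 for MAS2, -0.78 for MIA40, -0.38 for SAM35, -0.27 for SAM37 and -0.40 for SAM50.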

How the results depend on the processing

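Of the recomputed values, 6772 kept their side of the threshold, 218 lost and 164 gained a call, and 20 reversed. A change of sign counted as a reversal only where either fit called the gene. Uncalled values among the 6772 could differ in sign. All 20 reversals came with library totals. They were TOM71 (0.026) and MIA40 (0.22) for zuo1 against wild type in vehicle. For not5 in vehicle they were TOM5 (0.053), TOM22 (0.42), TIM8 (0.39), TIM10 (0.30), TIM13 (0.42), TIM54 (0.37), TIM17 (0.53), TIM44 (0.35), PAM18 (0.029) and OXA1 (0.38). For not5 under AZC they were TOM6 (0.43), TOM22 (0.35), TIM54 (0.41), TIM44 (0.16), PAM18 (0.51), OXA1 (0.49), SAM35 (0.24) and SAM50 (0.50). With all 32 libraries in 1 fit, 13 import genes passed for AZC in wild type on flowcell 2. For AZC in zuo1, 1 gene passed with library totals, with all 32 libraries, with the replicate block and with the block within genotype; under the replicate block it was TIM10 (-0.43, edgeR adjusted p = 0.0256). For the interaction of not5, 8 genes passed with library totals and 23 with the block within genotype, and the shares of all genes in those fits are not given here. For the difference between flowcells 1 passed with that block. Over all genes, that difference had 76 calls in edgeR, 356 in DESeq2, 172 with the replicate block, 498 with the block within genotype and 5 to 517 without 1 library; AZC in zuo1 had 160, and 280 and 308 with these blocks. The cause was not tested.

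Leaving out 1 library gave 0 to 1 import genes for AZC in zuo1, 6 to 11 for the interaction of zuo1 and 13 to 18 for that of not5. It gave 13 to 17 and 19 to 23 for AZC in wild type on flowcells 1 and 2, 17 to 22 and 20 to 23 for zuo1 against wild type in vehicle and under AZC, and 25 to 27 and 22 to 25 for not5. Where replicate numbers did not pair the libraries, the block added TIM17 (-0.26) and ERV1 (0.26) for zuo1 under AZC and TIM9 (0.25) for not5 in vehicle. The same block added TIM54 (0.24), TIM50 (0.34) and PAM17 (-0.40) to the interaction of zuo1, and TIM8 (0.32), TIM21 (0.18) and TIM44 (-0.19) to that of not5. For AZC in wild type, the fitted SE of an import gene's log2 fold change, which includes the spread between libraries, was 0.073 to 0.249 on flowcell 1 and 0.0396 to 0.153 on flowcell 2; the part of depth in it was not separated.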

Other observations

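Gene groups next to the import machinery moved as well. Of 12 genes of the MIM insertase, the ERMES tether and the MICOS complex, which shapes cristae, 5 rose and 0 fell with AZC in wild type on flowcell 1, and 5 rose and 2 fell on flowcell 2. In vehicle, 9 were higher and 3 lower in zuo1 than in wild type, and 11 were higher and 0 lower in not5, led by the MICOS subunits MIC27 at 2.79 ± 0.06 and MIC26 at 1.72 ± 0.05. The list's median was 0.68 in zuo1 and 0.74 in not5, against 0.01 and 0.00 over all genes. Of all genes, 30.1% were higher and 29.1% lower in zuo1, and 41.2% higher and 40.9% lower in not5. In zuo1 the median was 0.82 over protein-coding genes of at most 350 nucleotides, with 62.8% called higher. It was 0.48 over those of over 350 to 600, with 57.4% called higher. The part of length in this list's zuo1 count was not tested. Of 6 genes of inner membrane insertion related to OXA1 in role, 3 rose and 1 fell with AZC in wild type on flowcell 1 and 4 rose and 1 fell on flowcell 2, led by MSS2, which helps insert Cox2, at 1.05 ± 0.13 and 0.70 ± 0.08. Beside both lists, 33.3% of all genes rose with AZC and 31.3% fell in wild type on flowcell 1. On flowcell 2 these shares were 30.2% and 35.2%. POR1, the main porin and a SAM substrate, rose with AZC in wild type on flowcell 2, at 0.45 ± 0.07, and was not called on flowcell 1, at 0.24 ± 0.11 (edgeR adjusted p = 0.0656). In vehicle, POR1 was lower in zuo1 than in wild type, at -0.55 ± 0.11, and higher in not5, at 0.49 ± 0.07. Its paralog POR2 was not called in zuo1, at 0.24 ± 0.11, and was lower in not5, at -1.35 ± 0.10.

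The matrix chaperones moved in both directions in each mutant in vehicle. In zuo1, 2 of 10 were higher and 5 lower than in wild type, with the co-chaperonin HSP10 at 0.92 ± 0.15 and the chaperonin HSP60 at -1.14 ± 0.11. In not5, 5 were higher and 4 lower, with HSP78 at 2.28 ± 0.19 and the motor Hsp70 SSC1 at -0.82 ± 0.11. Of 13 proteases, 3 were higher and 8 lower in zuo1, and 6 were higher and 3 lower in not5. Of 7 genes of the response to blocked import, 2 were higher and 2 lower in zuo1 and 6 were higher and 1 lower in not5. Beside these counts, 30.1% of all genes tested were higher and 29.1% lower in zuo1, and 41.2% higher and 40.9% lower in not5. Whether any of the 3 lists differed from all genes was not tested, and neither was the part of coding length in the zuo1 values.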
